A study of Mus musculus with 6 samples.

Results

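Genes of the synaptic vesicle cycle and of neurotransmission were compared between the vestibular and the cochlear sensory epithelia of the newborn mouse. The set was defined by 42 gene names, covering vesicle proteins, the fusion machinery, regulators of release, vesicular transmitter transporters, synaptic adhesion proteins, receptor subunits and secretory granule proteins. Each gene was read by the probe set with the highest mean over all arrays among those annotated to that gene alone. Such a probe set was found for 41 of the 42 genes, out of 18193 genes on the array, and Grin1, a subunit of the NMDA type of glutamate receptor, was not analysed here. Of these, 37 genes reached the minimum mean level of 4.7 on the log2 scale that was required for testing, out of 14162 genes in all.

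The vestibule group held 3 arrays and the cochlea group held 3 arrays. Both were wild type, of the C3H strain with no treatment named, and aged postnatal day 2, and each array read RNA from a pool of tissue of 10 to 12 inner ears. The vestibular tissue joined the saccule, the utricle and 2 of the cristae (lateral and anterior), and in both organs the mesenchyme beneath the epithelium and the neurons attached to it were included. The tissue was therefore a mixture of cell types, neurons among them, so that fewer cells of a type and less RNA per cell cannot be told apart in these values. Levels are log2 RMA values, in which 1 unit is a 2-fold difference, and every difference is the vestibular minus the cochlear level, with negative values where the cochlea was higher.

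At a synapse, transmitter is loaded into vesicles by transporters, the vesicles are docked by Rab and RIM proteins, and the SNARE proteins of the vesicle and of the cell membrane zip together to fuse them. Synaptotagmins sense the calcium that triggers the fusion, and complexins clamp and assist the SNARE complex. In the inner ear, hair cells release glutamate from ribbon synapses, which use otoferlin as a calcium sensor, whereas the afferent neurons carry AMPA receptors at these contacts, and efferent neurons end on hair cells and afferents with conventional vesicles.

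Of the 37 genes tested, 2 were higher in the vestibule, 14 were higher in the cochlea and 21 did not pass the test, which required an adjusted p under 0.1 by limma (Benjamini-Hochberg) and a fold of at least 1.3. The vestibule-high members made up 5.41% of those tested, beside 15.1% of all genes tested, and the cochlea-high members 37.8%, beside 7.97% of all genes. The values of the 3 vestibular arrays all lay above those of the 3 cochlear arrays for 2 members, or 5.41%, against 19.9% of all genes. The reverse, with every cochlear array above every vestibular array, held for 15 members, or 40.5%, against 12.4% of all genes. The median difference over the members was -0.23, and that over all genes was 0.03. The difference was negative for 27 members, positive for 9 and 0 for 1. The members with the strongest differences were Cplx1 and Syt1, which act at the fusion step. None of the 3 vesicular transporters and 2 postsynaptic scaffolds among the members passed the test, and neither did 10891 of all 14162 genes tested.

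**Figure D1:**
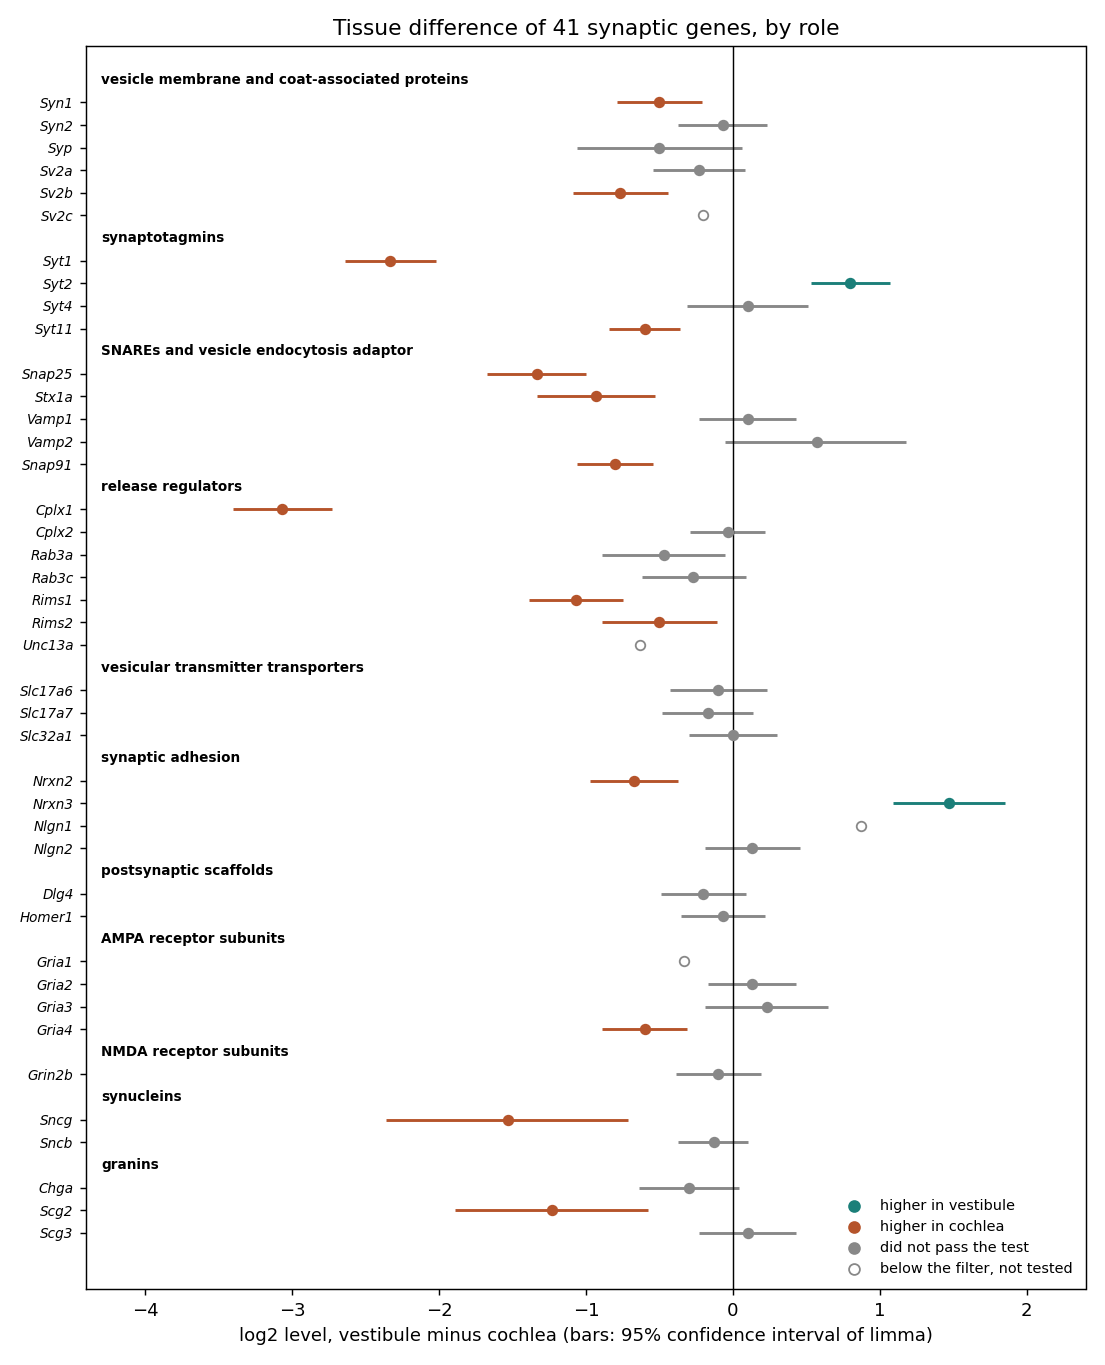
The log2 difference, vestibule minus cochlea, of 41 genes with a probe set, grouped by role, with points for the fitted differences and bars for their 95% confidence intervals; open points mark 4 genes below the minimum mean, which were not tested. The 2 vestibule-high genes, Syt2 and Nrxn3, lie right of 0, and the cochlea-high genes lie left of it, down to -3.07 for Cplx1.

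Promoter windows that carry a match to a short motif are shown here for 6 genes that passed the test, because they were called in the same comparison. Gria2, which did not pass but shares its motif with Syt2, is shown as well. RefSeq promoter sequences (mouse build GRCm38.p6, 250 bases before the start of each gene) were found for 34 of the 42 members, among them both of the vestibule-high and 11 of the cochlea-high ones. They were searched on both strands for CAGCTG, an E-box that proneural bHLH factors can bind, and for TGACGTCA, the cyclic AMP response element. The other motif was the core of the RE1 element bound by the repressor REST, searched as GCACC and GGACAG with 2 bases of any kind between them. The part in capitals marks the match. The first 3 windows hold the E-box, the next 2 the cyclic AMP response element and the last 2 the RE1 core, which in Gria2 lies on the opposite strand.
Cplx1, chr5:108550068-108550145, - strand: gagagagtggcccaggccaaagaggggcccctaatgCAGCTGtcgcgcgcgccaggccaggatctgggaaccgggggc
Syt1, chr10:109009112-109009178, - strand: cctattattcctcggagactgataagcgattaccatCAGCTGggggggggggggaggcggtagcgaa
Stx1a, chr5:135023413-135023481, + strand: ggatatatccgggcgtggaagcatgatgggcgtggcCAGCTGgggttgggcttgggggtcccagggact
Scg2, chr1:79440051-79440130, - strand: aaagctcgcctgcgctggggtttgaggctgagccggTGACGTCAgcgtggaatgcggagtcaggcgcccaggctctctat
Syn1, chrX:20921034-20921113, - strand: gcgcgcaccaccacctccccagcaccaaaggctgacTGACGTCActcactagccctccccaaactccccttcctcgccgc
Syt2, chr1:134646456-134646540, + strand: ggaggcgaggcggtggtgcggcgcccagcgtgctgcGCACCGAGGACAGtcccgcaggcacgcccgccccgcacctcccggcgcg
Gria2, chr3:80802957-80803041, - strand: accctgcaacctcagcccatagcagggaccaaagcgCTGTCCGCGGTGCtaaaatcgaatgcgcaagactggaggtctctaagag

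The E-box stood in 10 of the 34 member promoters (29.4%), and in 14.7% of the promoters of 27025 genes. It was present in 3 of the 11 cochlea-high members with a sequence and in 7 of the 17 members that did not pass the test. With positions counted back from the start of the gene, its first base lay at -31 in Syt1, at -33 in Stx1a and at -82 in Cplx1. The cyclic AMP response element stood in 2 members, Scg2 and Syn1 (5.88%, against 1.77% of all promoters). It began at -68 in Scg2 and at -159 in Syn1. The RE1 core also stood in 2 members (5.88%, against 0.0814% of all promoters), which were the vestibule-high Syt2 (at -120) and Gria2 (at -170). A match is a run of letters and not a measured site, and these windows were picked after the calls were known.

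Release regulators held the member with the largest difference. Cplx1, or complexin 1, which binds the assembled SNARE complex, had levels of 8.0, 7.7 and 8.2 in the vestibule, against 10.9, 11.1 and 11.1 in the cochlea. The groups were far apart, with each cochlear array well above each vestibular one. The difference was -3.07 (SE 0.15, adjusted p = 4.15e-06), an 8.38-fold higher level in the cochlea. Its paralog Cplx2 read 8.5, 8.5 and 8.4 in the vestibule and 8.5, 8.6 and 8.4 in the cochlea, a difference of -0.03 (95% interval -0.29 to 0.22, adjusted p = 0.887). The complexins thus diverged, and Cplx1 minus Cplx2 differed between the tissues by -3.03 (SE 0.19).

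Rims1 and Rims2, RIM proteins that tether vesicles and calcium channels at the active zone, were both higher in the cochlea. Rims1 had levels of 4.9, 5.3 and 5.1 in the vestibule and of 6.0, 6.3 and 6.2 in the cochlea, with no overlap (difference -1.07, SE 0.14, adjusted p = 0.00101). Rims2 was 7.0, 7.0 and 6.9 in the vestibule and 7.1, 7.8 and 7.5 in the cochlea, where the lowest cochlear array lay close to the highest vestibular one. Its difference of -0.50 (SE 0.17) was just past the threshold, at an adjusted p of 0.0913. The call was lost without any one array other than cochlea replicate 1, with an adjusted p of 0.239, 0.215 and 0.276 without vestibule replicates 1, 2 and 3 and of 0.171 and 0.23 without cochlea replicates 2 and 3. It was also lost with no filter on dim probe sets (adjusted p = 0.119), and without cochlea replicate 2 the difference was -0.33. Of the other Rims2 probe sets tested, those at -0.83 and -0.57 were higher in the cochlea and the remaining one, at 0.10, did not pass (adjusted p = 0.702). Unc13a, the priming factor Munc13-1, was too dim to be tested, with levels of 4.5, 4.2 and 4.3 in the vestibule and of 4.8, 5.1 and 5.0 in the cochlea. Its cochlear arrays lay above its vestibular ones, and with no filter on dim probe sets it was called (difference -0.63, adjusted p = 0.0137).

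Rab3a and Rab3c, GTPases that bring vesicles to the release site, did not pass the test by their brightest probe sets. Their relatives Rab3b (difference -0.57, adjusted p = 0.0369) and Rab3d (difference -0.67, adjusted p = 0.0053), from the list of other synaptic genes, were higher in the cochlea and were picked for mention after their values were seen. Rab3a read 9.2, 9.5 and 9.3 in the vestibule and 9.7, 9.5 and 10.2 in the cochlea, with the groups touching at 9.5 (difference -0.47, 95% interval -0.89 to -0.05, adjusted p = 0.136). Without cochlea replicate 2, which held that value, its difference was -0.62 at an adjusted p of 0.0765. Without cochlea replicate 3 it was -0.27 at 0.273. The brightest Rab3a probe set is of a kind open to cross-hybridisation (_x_at). The other one tested read 8.2, 8.1 and 8.0 in the vestibule and 8.2, 8.5 and 7.8 in the cochlea. It gave a difference of -0.07 (adjusted p = 0.847). Rab3c had a difference of -0.27 at an adjusted p of 0.313. Without cochlea replicate 2 it was -0.42 at 0.076, and without cochlea replicate 3 it was -0.12 at 0.605. A dimmer Rab3c probe set, at 4.4, 4.2 and 4.5 in the vestibule and 5.1, 5.1 and 4.9 in the cochlea, did pass (difference -0.67, adjusted p = 0.00681). Its vestibular mean was under the minimum, so that it entered the test only through its cochlear level.

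Among the synaptotagmins, the members went in opposite directions. Syt1, the calcium sensor of fast release in forebrain neurons, had levels of 8.4, 8.2 and 8.3 in the vestibule and of 10.8, 10.7 and 10.4 in the cochlea. The groups did not overlap, and the difference was -2.33 (SE 0.14, adjusted p = 1.06e-05), a 5.04-fold higher level in the cochlea. Syt2, the fast sensor of hindbrain and neuromuscular synapses, was 7.2, 7.0 and 6.9 in the vestibule and 6.2, 6.2 and 6.3 in the cochlea. Here the vestibular arrays were the higher ones, with a difference of 0.80 (SE 0.12, adjusted p = 0.00197). The contrast between the pair, Syt1 minus Syt2, was -3.13 (SE 0.17). Syt11, which does not bind calcium, read 8.0, 8.0 and 7.9 in the vestibule and 8.6, 8.6 and 8.5 in the cochlea, a small but even difference of -0.60 (SE 0.11, adjusted p = 0.0049). Syt4 had a difference of 0.10 (95% interval -0.31 to 0.51, adjusted p = 0.767) and was dim, with means of 5.03 in the vestibule and 4.93 in the cochlea.

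The cell membrane SNAREs Snap25 and Stx1a were higher in the cochlea, and the vesicle SNAREs Vamp1 and Vamp2 did not pass the test. The related Snap23 (difference 0.47, adjusted p = 0.136) and Stx3 (difference -0.17, adjusted p = 0.427), named after their values were seen, did not pass either. Snap25 had levels of 7.0, 6.7 and 7.0 in the vestibule and of 8.3, 8.4 and 8.0 in the cochlea, without overlap (difference -1.33, SE 0.15, adjusted p = 0.000358). Its partner Stx1a, or syntaxin 1A, was 8.0, 7.9 and 8.0 in the vestibule and 8.6, 8.8 and 9.3 in the cochlea (difference -0.93, SE 0.18, adjusted p = 0.00674), and without probe sets open to cross-hybridisation its difference was -0.47. Cochlea replicate 3 was the highest of these arrays, and the vestibular arrays were nearly level. The vesicle SNARE Vamp2 read 9.3, 9.1 and 9.1 in the vestibule and 8.8, 9.1 and 7.9 in the cochlea, with the groups sharing the value 9.1. Its difference was 0.57 (95% interval -0.05 to 1.18, adjusted p = 0.212), and that of Vamp1 was 0.10 (95% interval -0.23 to 0.43, adjusted p = 0.702). Snap91, or AP180, which gathers vesicle membrane for clathrin-mediated retrieval, had levels of 9.4, 9.2 and 9.3 in the vestibule and of 10.2, 10.1 and 10.0 in the cochlea. These sets of values were tight and apart, with a difference of -0.80 (SE 0.12, adjusted p = 0.00159).

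Of the vesicle proteins tested, 2 of 5 were higher in the cochlea, beside 7.97% of all genes tested, and 5 genes are too few to set against that share. Sv2b, one of the SV2 glycoproteins that maintain the releasable pool, was 5.7, 5.8 and 5.8 in the vestibule and 6.8, 6.3 and 6.5 in the cochlea (difference -0.77, SE 0.14, adjusted p = 0.00648). Syn1, or synapsin 1, which ties vesicles to the reserve pool, was 5.8, 5.9 and 5.7 in the vestibule and 6.2, 6.5 and 6.2 in the cochlea. In both genes every cochlear array lay above every vestibular one. For Syn1 the difference was -0.50 (SE 0.13, adjusted p = 0.0292), and the call was lost without vestibule replicate 1 (adjusted p = 0.114) or vestibule replicate 3 (adjusted p = 0.127). Syp, or synaptophysin, an abundant vesicle membrane protein, had levels of 6.2, 6.1 and 6.0 in the vestibule and of 6.7, 7.1 and 6.0 in the cochlea. Cochlea replicate 3 sat within the vestibular range, and the other 2 cochlear arrays lay above it. The difference of -0.50 did not pass (95% interval -1.06 to 0.06, adjusted p = 0.223). Without cochlea replicate 3 it was -0.80 at an adjusted p of 0.0253, and without cochlea replicate 2 it was -0.25 at 0.462. Sv2a had a difference of -0.23 and Syn2 one of -0.07, neither past the test, and Sv2c was below the minimum mean.

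The adhesion proteins that span the synaptic cleft also split. Nrxn3, a presynaptic neurexin, had levels of 10.3, 9.8 and 10.2 in the vestibule and of 8.8, 8.7 and 8.4 in the cochlea. This was the largest difference in favour of the vestibule among the members tested, at 1.47 (SE 0.17, adjusted p = 0.000429), a 2.76-fold higher level. Nrxn2 went the other way, with 6.5, 6.3 and 6.6 in the vestibule and 7.1, 7.0 and 7.3 in the cochlea (difference -0.67, SE 0.13, adjusted p = 0.00875). Neither neurexin showed overlap between the tissues, and Nrxn2 minus Nrxn3 differed by -2.13 (SE 0.22). Of the neuroligins, their postsynaptic partners, Nlgn2 had a difference of 0.13 (95% interval -0.19 to 0.46, adjusted p = 0.599). Nlgn1 was below the minimum mean, at 5.1, 4.9 and 5.3 in the vestibule and 4.1, 4.2 and 4.4 in the cochlea. Its vestibular arrays were all the higher ones, and with no filter it was called (difference 0.87, adjusted p = 0.00451).

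None of the 3 vesicular transmitter transporters among the members passed the test, and neither did 10891 of all 14162 genes tested. Slc17a6, or VGLUT2, which loads glutamate, read 6.8, 7.0 and 6.8 in the vestibule and 6.7, 7.1 and 7.1 in the cochlea, with full overlap (difference -0.10, 95% interval -0.43 to 0.23, adjusted p = 0.702). Slc17a7, or VGLUT1, had a difference of -0.17 (95% interval -0.48 to 0.14) and Slc32a1, which loads GABA and glycine, one of 0 (95% interval -0.30 to 0.30). The intervals give the uncertainty of the difference between the tissue means by limma, and do not show equal levels. Slc17a7 was dim, with a vestibular mean of 4.83 beside the minimum of 4.7. Slc32a1, at a mean of 5.37 in both tissues, lay below the median of each array. Since RMA shrinks differences of dim probe sets, the intervals of Slc17a7 and Slc32a1 do not bound how far their transcripts could differ.

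On the postsynaptic side, Gria4, an AMPA receptor subunit, was the only one of 6 genes tested, scaffolds and glutamate receptor subunits together, to pass. Of all 14162 genes tested, 10891 did not pass. Its levels were 7.1, 7.1 and 7.3 in the vestibule and 7.6, 7.8 and 7.9 in the cochlea, with no overlap (difference -0.60, SE 0.13, adjusted p = 0.0118). Gria3 was 7.4, 7.3 and 7.5 in the vestibule and 6.9, 7.0 and 7.6 in the cochlea, where cochlea replicate 3 exceeded all vestibular arrays. Its difference of 0.23 did not pass (adjusted p = 0.461). Without cochlea replicate 3 it was 0.45 at an adjusted p of 0.0441, and without cochlea replicate 1 it was 0.10 at 0.791. Gria2, the subunit that keeps calcium out of the channel, had a difference of 0.13 by its brightest probe set (95% interval -0.17 to 0.43, adjusted p = 0.564). A dimmer Gria2 probe set was 5.6, 5.2 and 5.5 in the vestibule and 4.3, 4.7 and 4.6 in the cochlea, and was called (difference 0.90, adjusted p = 0.00406), having entered the test only through its vestibular level. The probe sets of Gria2 therefore gave different answers. The scaffolds Dlg4 (PSD-95) and Homer1 had differences of -0.20 and -0.07, and Grin2b, an NMDA receptor subunit, one of -0.10, none past the test. Dlg4 (means 5.07 in the vestibule and 5.27 in the cochlea) and Grin2b (5.07 and 5.17) were dim, below the median of each array. Their small differences do not show equal levels. Gria1 was below the minimum mean.

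Synucleins and granins each held 1 cochlea-high member, out of 2 and 3 tested and beside 7.97% of all genes, with the widest spread between arrays. Sncg, or gamma-synuclein, abundant in peripheral sensory neurons, was 7.7, 7.6 and 7.4 in the vestibule and 8.1, 9.5 and 9.7 in the cochlea. Cochlea replicate 1 stood well below the other 2 cochlear arrays, and the cochlear SD of 0.87 was the highest of all members tested. The difference was -1.53 (SE 0.36, adjusted p = 0.0206), and it stayed past the threshold without cochlea replicate 1. It missed the threshold without any other array, at an adjusted p of 0.113, 0.106 and 0.131 without vestibule replicates 1, 2 and 3 and of 0.11 and 0.127 without cochlea replicates 2 and 3. It also missed it with a replicate block (adjusted p = 0.123). Sncb read 6.3, 6.4 and 6.4 in the vestibule and 6.5 in all 3 cochlear arrays, a difference of -0.13 that did not pass (adjusted p = 0.453).

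Scg2, or secretogranin II, a granin of dense-core granules, had levels of 6.1, 5.9 and 5.2 in the vestibule and of 7.2, 7.3 and 6.4 in the cochlea. Replicate 3 was the lowest of its tissue in both groups, and the groups still did not overlap (difference -1.23, SE 0.29, adjusted p = 0.019). Without vestibule replicate 3 the adjusted p was 0.104, without cochlea replicate 1 it was 0.121 and without cochlea replicate 2 it was 0.101. Chga, or chromogranin A, was 7.9, 7.8 and 7.7 in the vestibule and 7.8, 8.2 and 8.3 in the cochlea (difference -0.30, adjusted p = 0.236). Without cochlea replicate 1 its difference was -0.45 at an adjusted p of 0.0592, and without cochlea replicate 3 it was -0.20 at 0.47. Scg3 had a difference of 0.10 (adjusted p = 0.707).

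**Figure D2:**
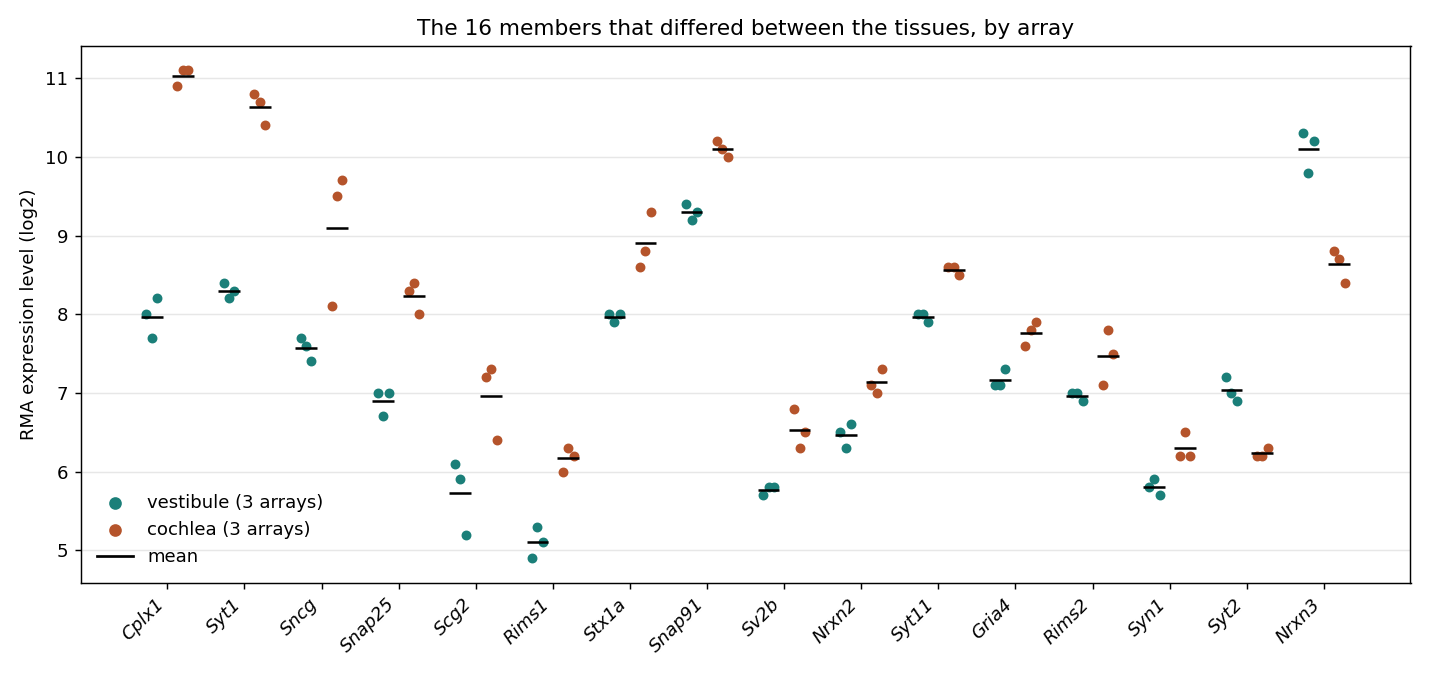
The log2 RMA level of the 16 members that passed the test on each of the 3 vestibular and 3 cochlear arrays, with lines at the group means. The arrays of the tissues are apart for each of the 16, widest for Cplx1 (8.0, 7.7 and 8.2 in the vestibule, 10.9, 11.1 and 11.1 in the cochlea), and the cochlear points of Sncg spread most. The 16 were picked by their difference on these same arrays, so that the separation is no separate support.

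The median SD of a tested member was 0.12 over the vestibular arrays and 0.21 over the cochlear arrays, beside 0.12 and 0.17 for all genes. The SD was larger in the vestibule for 7 members, larger in the cochlea for 26 and equal for 4. The median level of the tested members was 7.0 on each of the vestibular arrays and 7.2, 7.3 and 7.5 on cochlear arrays 1, 2 and 3, while the array median over all probe sets was 5.6 to 5.7 on each of the 6 arrays.

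Within families, paralogs were set against each other as a within-array difference for 10 pairs, which were picked after their values were known. The arrays of the tissues did not overlap for 8 of the pairs. Each of these held a member that had passed the test by itself, so that the separation is no separate support. The SE of a pair, here and above, came from the arrays alone and not from limma. Besides the complexins, synaptotagmins and neurexins, Sncg minus Sncb differed by -1.40 (SE 0.52), Gria4 minus Gria3 by -0.83 (SE 0.16) and Rims1 minus Rims2 by -0.57 (SE 0.17). Sv2b minus Sv2a differed by -0.53 (SE 0.19) and Syn1 minus Syn2 by -0.43 (SE 0.22). With 3 arrays against 3, the two-sided exact permutation test cannot go below p = 0.1, which each of the 8 reached, at 0.125 after Benjamini-Hochberg adjustment over the 10 pairs. The vesicle SNAREs Vamp1 and Vamp2 (exact permutation p = 0.4) and the transporters Slc17a6 and Slc17a7 (exact permutation p = 1) overlapped.

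Several probe sets of the same gene were tested for 18 members. The 4 tested Syt1 probe sets were all higher in the cochlea, with differences of -2.33, -1.93, -0.63 and -1.13. The last 3 had vestibular means under the minimum (4.17, 4.67 and 4.37) and entered the test only through their cochlear levels, so that their direction is no separate support. Higher in the cochlea were also both of Stx1a (-0.93 and -0.47) and both of Sv2b (-0.77 and -1.30). For Cplx1, another probe set gave -3.13, whereas a further one gave -0.23 and did not pass. For Nrxn3, 3 more probe sets were called in favour of the vestibule (from 1.17 to 1.67) and 1 did not pass, at 0.27. The one at 1.17 had a cochlear mean under the minimum, at 4.60. Syt11 had 4 probe sets higher in the cochlea, from -0.90 to -0.60, and 1 at -0.33 that did not pass. The call thus depended on the probe set for Cplx1, Nrxn3, Syt11, Rims2, Gria2 and Rab3c, and in Syt1, Stx1a and Sv2b the size of the difference did.

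**Figure D3:**
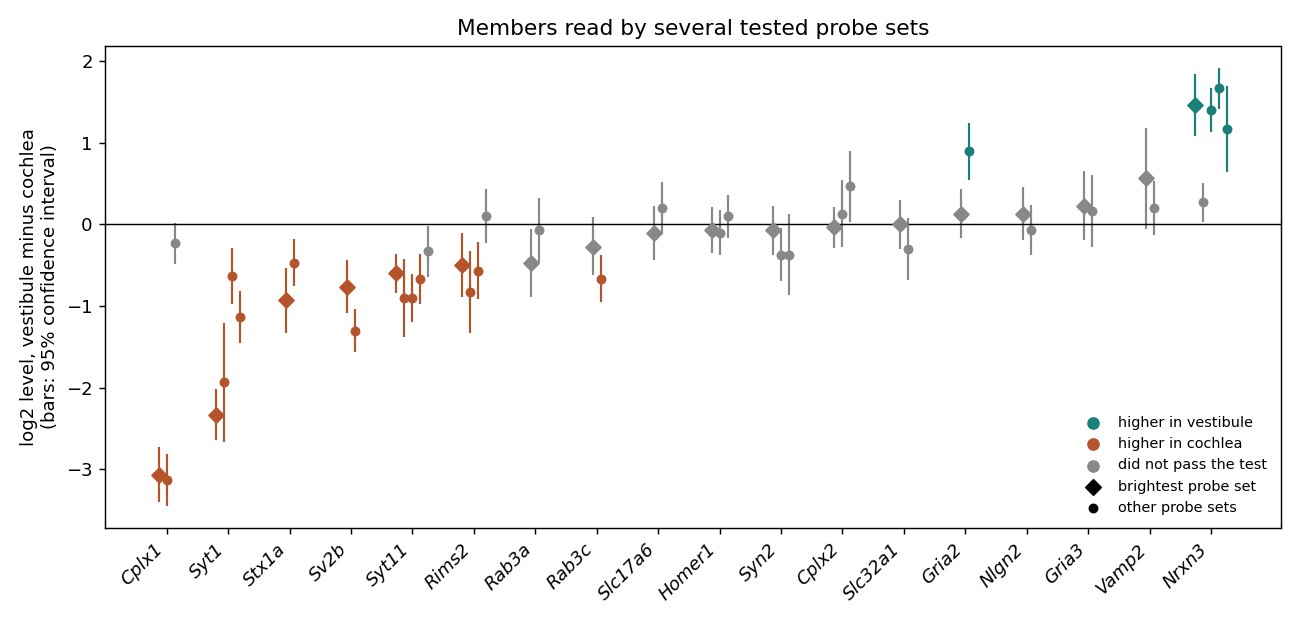
The log2 difference, vestibule minus cochlea, of each tested probe set of the 18 members that had several, with diamonds for the brightest probe set, circles for the others and bars for 95% confidence intervals. The probe sets of Syt1, Stx1a and Sv2b lie on the cochlear side of 0, those of Cplx1 run from -3.13 to -0.23, and 1 Gria2 probe set stands apart at 0.90.

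Other genes of the synapse, from a textbook list of 116, included genes higher in either tissue. Of 74 tested, 17 had the higher level in the vestibule, 17 in the cochlea, and 40 did not pass, with a median difference of -0.03. These counts stand beside 15.1% of all genes called vestibule-high and 7.97% called cochlea-high, and with the stricter filter they were 18 and 12. The adhesion protein Lrrtm1 had a difference of -3.23, with levels of 6.6, 5.7 and 5.5 in the vestibule and of 9.3, 8.9 and 9.3 in the cochlea. The GABA receptor subunit Gabrb1 (-1.93), Lrrtm4 (-1.80), the dynamin Dnm3 (-1.80), the kainate receptor subunit Grik1 (-1.73) and the granin Chgb (-1.10) followed. The vestibule-high ones were led by otoferlin (Otof, 1.53), the calcium sensor of the hair cell synapse, with levels of 10.8, 10.4 and 10.8 in the vestibule and of 9.4, 9.0 and 9.0 in the cochlea. Syt13 (1.47), the priming factor Unc13c (1.23), the GTPase Rab27b (0.90), amphiphysin (Amph, 0.90) and the nicotinic receptor subunit Chrna4 (0.80) were next. The groups did not overlap for Lrrtm1 or Otof, and these were the largest differences among the 74 genes tested, in each direction. Slc18a2, a vesicular monoamine transporter below the minimum mean and so not tested, had a larger difference of 2.03, with levels of 5.7, 5.3 and 5.8 in the vestibule and of 3.6, 3.5 and 3.6 in the cochlea.

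Markers of neurons moved in the same direction as the cochlea-high members. Of all genes tested, 15.1% were vestibule-high and 7.97% cochlea-high. Of 22 neuron markers tested, 2 were higher in the vestibule, 19 were higher in the cochlea and 1 did not pass, with a median difference of -1.27. With the stricter filter of 20000 probe sets 2 were vestibule-high and 9 cochlea-high, and with probe sets averaged per gene 0 were vestibule-high and 15 cochlea-high. Elavl2 and Stmn2 both had a difference of -3.90 and Uchl1 one of -2.97, whereas the neurotrophin receptors Ntrk2 (0.87) and Ntrk3 (0.83) were the vestibule-high ones. The mean level of the list was 6.40, 6.52 and 6.55 on the vestibular arrays and 7.60, 7.99 and 8.05 on the cochlear arrays. No value is 0 on this scale, and the vestibular means of Elavl2 (4.20), Nefh (4.43), Dcx (4.50) and Ina (4.57) were under the minimum mean, so that these 4 entered the test only through the cochlea. Replicate 1 was the lowest array of its tissue for the neuron list in both tissues. Whether these markers have a part in the differences of the members was not tested.

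Markers of hair cells moved the other way, as did most of those of Schwann and satellite glia. The counts below stand beside the same shares of all genes, 15.1% vestibule-high and 7.97% cochlea-high. Of 20 hair cell markers listed, 14 had a probe set and were tested. Of these, 9 passed with a higher vestibular level and 0 with a higher cochlear level, at a median of 1.00, led by Gfi1 (3.10), Ush1c (1.57) and Otof (1.53). The mean level of that list was 8.59, 8.43 and 8.60 in the vestibule and 7.56, 7.57 and 7.44 in the cochlea, and with these levels the labelled sensory epithelia did contain hair cell transcripts. Of 9 Schwann and satellite glia markers, 5 were higher in the vestibule, among them Pmp22 (1.77), Mbp (1.33) and S100b (1.13), and 2 were higher in the cochlea, Fabp7 (-0.63, adjusted p = 0.097, with overlapping arrays) and Erbb3 (-0.43, adjusted p = 0.0653). That cochlea-high count was 0 without vestibule replicate 2 or 3 or cochlea replicate 1 or 2, 1 without vestibule replicate 1 or cochlea replicate 3, and 0 at an adjusted p under 0.05. Their mean level was 11.69, 11.20 and 11.23 in the vestibule and 10.99, 10.77 and 10.73 in the cochlea. Of 5 central nervous system glia markers tested, 1 was higher in the vestibule (Mag, or myelin-associated glycoprotein, 1.33) and 4 did not pass. That 1 gene does not show a rise of this cell type. Of 6 chromaffin and endocrine markers, 1 was higher in the cochlea (Chgb, -1.10) and 5 did not pass. Lists this short are too small to set against the shares of all genes. The lists share genes, since Otof and Chgb also stand among the other synaptic genes, and are not separate support. The part of these lists in the values of the members was not tested either.

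**Figure D4:**
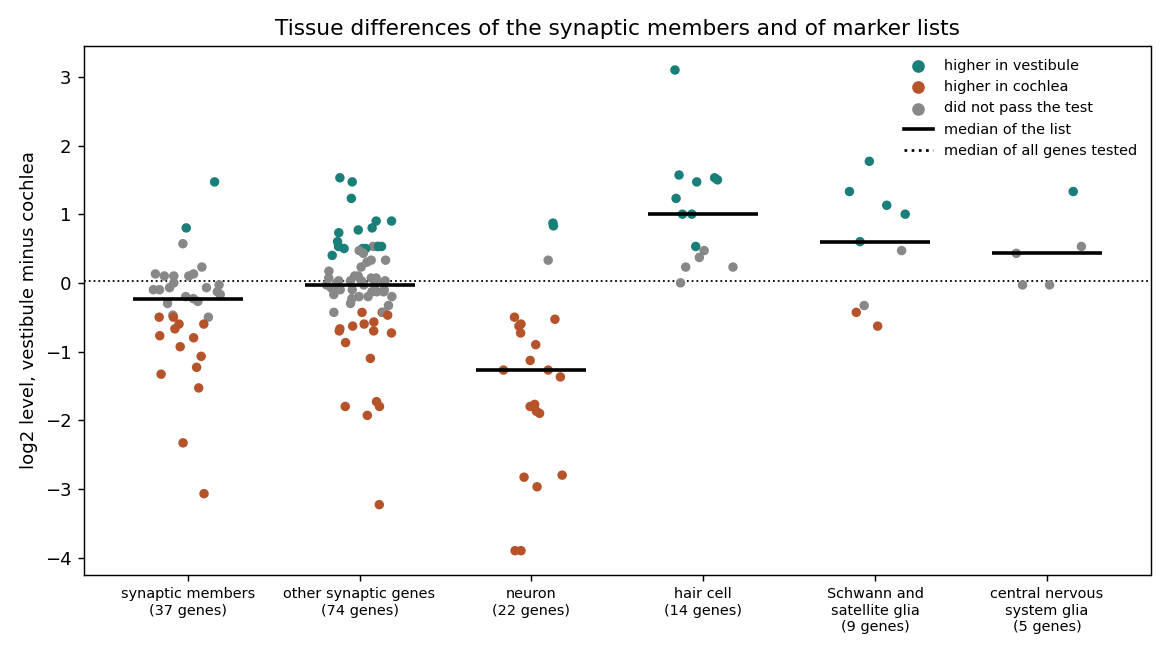
The log2 difference, vestibule minus cochlea, of each tested gene in the synaptic set, the other synaptic genes and 4 lists of cell type markers, with solid lines for the list medians and a dotted line for the median of all genes, 0.03. The medians are -0.23 for the members, -0.03 for the other synaptic genes, -1.27 for neuron markers and 1.00 for hair cell markers.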

How the data were processed

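Transcripts of 3 vestibular and 3 cochlear samples were read on Affymetrix mouse genome arrays after amplification. The authors deposited log2 expression values from RMA with quantile normalization, to 1 decimal, and filtered on MAS5 Present calls. The RMA and MAS5 versions were not given in the sources used here. RMA shrinks differences of dim probe sets, and Present calls were not repeated here, so a mean log2 value of at least 4.7 over all arrays replaced them, which kept 29554 of 45037 probe sets (64 controls left out). The platform annotation names 1 gene for 34945 probe sets, several for 932 and none for 9160, and only the first were used.

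The difference of vestibule over cochlea came from limma 3.58.1 under R 4.3.3 (two-sided lmFit and eBayes, no covariates), with Benjamini-Hochberg adjustment over the tested probe sets, an adjusted p under 0.1, a fold of at least 1.3 and 95% intervals. The code was tested on simulated data. Arrays with the same labels correlated at 0.980 to 0.993 and no array was a copy of another (12.0% to 21.4% equal values). Nothing in the sources says which mice went into which pool, so p-values measure the spread between these pools, and 3 arrays per tissue limit the precision.

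Named are all 42 members, up to 6 called other synaptic genes and up to 3 called markers per list in each direction, by largest difference; neuron markers under the minimum mean and Rab3b, Rab3d, Snap23, Stx3 and Slc18a2 were named after their values were seen. Members and lists (other synaptic genes, neuron, hair cell, Schwann and satellite glia, central nervous system glia, chromaffin and endocrine) were chosen with earlier results of these data known. Alternatives were filters, scalings, eBayes with a trend, array weights, a replicate block, each array left out, other thresholds, averaged probe sets per gene and probe set suffixes. Promoter sequences are from RefSeq, GRCm38.p6. Python 3.11.15 and matplotlib 3.10.9 drew the plots.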

Additional observations from a re-analysis of the deposited data

How the results depend on the processing

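The counts of members, 2 vestibule-high and 14 cochlea-high, stayed within 1.5 times under every alternative. The median over the members, -0.23 as reported, was -0.38 with a stricter filter that kept 20000 probe sets. Among other synaptic genes, those with the higher level in the vestibule numbered 17 as reported and 11 when all probe sets of a gene were averaged. With each array left out in turn, vestibule-high members numbered 2 to 3, cochlea-high members 10 to 14, and their median ran from -0.27 to -0.13. The same ranges for other synaptic genes were 12 to 18 vestibule-high and 11 to 16 cochlea-high, with 11 reached without vestibule replicate 1. The cause was not tested.

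Replicate numbers were not taken to pair the samples, since the sources do not say whether equal numbers mark a shared dissection. Deviations of same-numbered arrays correlated at 0.22, 0.15 and 0.00, and those of differently numbered arrays at -0.22 to 0.03. These values do not settle whether the samples were paired. With the replicate block in the fit, 2 members were vestibule-high and 12 cochlea-high, with a median of -0.23, and the calls of Rims2 (adjusted p = 0.166) and Sncg (0.123) were lost. With the same block, 14 of the other synaptic genes were vestibule-high and 14 cochlea-high.

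Over the arrays left out in turn, Syn2 ran from -0.18 to 0.02, Syt4 from -0.12 to 0.23, Cplx2 from -0.08 to 0.02 and Homer1 from -0.12 to 0.03. Small differences of genes that did not pass the test changed sign. These were Syt4 (-0.01) and Slc17a6 (0.01) with array weights, Syn2 (0.02) and Homer1 (0.03) without cochlea replicate 1, and Syt4 (-0.12) and Cplx2 (0.02) without cochlea replicate 2. With probe sets averaged per gene, Cplx2 was 0.19 and Slc17a6 was 0.05, and without the less specific probe sets (_x_at, _s_at) Cplx2 was 0.13. With the same averaging, Nrxn2 (-0.35) fell under the minimum fold and Gria2 (0.49, adjusted p = 0.00785) passed. Array weights brought Syp (adjusted p = 0.05) and Rab3a (0.0812) past the threshold and put Rims2 (0.165) short of it. With arrays centred on their median Rab3a (0.0954) passed and Rims2 (0.103) did not. These Rab3a values are of its brightest probe set, and its other tested one gave -0.07 (adjusted p = 0.847) as reported. Cplx1, Syt1, Snap25, Snap91, Stx1a, Sv2b, Syt11, Gria4, Rims1, Syt2 and Nrxn3 kept their direction and call under all alternatives that gave them a value. Their size did not always hold, since with probe sets averaged per gene Snap91 was -0.40, Syt1 -1.51, Syt2 0.51 and Gria4 -0.39, and without the less specific probe sets Stx1a was -0.47. A random value of up to 0.05 around each deposited decimal, an alternative chosen after seeing the data, left 2 and 14 members called.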
